A study of Rattus norvegicus with 16 samples.

Results

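The transcription factors that set up and maintain heart muscle identity were followed in the left ventricle of rats with volume overload. The group was fixed by name as Gata4, Gata6, Mef2a, Mef2c, Mef2d, Nkx2-5, Tbx5, Tbx20, Hand2 and Srf, and its members on the array are the probe sets annotated to exactly 1 of these genes. Of the 10 genes, 9 had a probe set, with 19 probe sets in all among the 31099 on the array, and Tbx20 had none. Mef2a had 4 probe sets and Srf had 3, whereas Gata4, Gata6, Mef2c, Mef2d and Hand2 had 2 each and Nkx2-5 and Tbx5 had 1 each. Probe sets of the same gene were read on the same arrays and are not independent measurements. Whether the probe sets of a gene read the same transcripts was not tested.

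The hearts came from adult male Sprague-Dawley rats, either controls or rats with an aortocaval fistula (ACF), a shunt between the aorta and the vena cava that returns extra blood to the heart and loads it with volume. Each of the 4 groups (controls, and ACF of 8, 16 and 24 weeks) held 4 rats, and each rat gave 1 array of left ventricular RNA. The titles call the controls baseline, whereas the study describes sham controls, so surgery cannot be told apart from ACF if the controls were taken at baseline. A single group of 4 controls was set against every ACF time, so it can match the age of the rats at most at 1 time. At the other times age cannot be told apart from ACF, whichever kind of control these were. In their description field the last group is given as 24, 25, 26 and 27 weeks, while all 4 titles say 24. The labels name no allele or agent beyond the shunt. The excised left ventricle was ground to powder, so every value is a mixture of muscle cells and all other cells of the wall. In such bulk tissue, fewer cells of a type and less RNA per cell cannot be told apart.

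These factors work as a network. GATA4 and GATA6 are zinc finger proteins, MEF2 proteins and SRF share the MADS domain, NKX2-5 is a homeodomain protein, TBX5 is a T-box protein and HAND2 is a basic helix-loop-helix protein. They bind side by side at the control regions of contractile and natriuretic peptide genes, and much of their activity in overloaded hearts is known to be set by phosphorylation, by movement of cofactors into the nucleus and by release from histone deacetylases, none of which an array measures.

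The medians of the deposited arrays lay at 2 levels, 6.13 to 6.17 on 9 arrays (4 control, 3 at 8 weeks, 2 at 16 weeks) and 5.92 to 5.96 on 7 arrays (1 at 8 weeks, 2 at 16 weeks, 4 at 24 weeks). Each array was therefore centred on its median, and values below are log2 units above the array median. Because no control array lay at the lower level and no 24-week array at the higher one, 24 weeks against control has no value within a level. A fit with array level as a block takes the level effect from the 8-week and 16-week groups, which hold both levels, and for 24 weeks against control it called 0 of the 19 probe sets and 4 of all probe sets, where the fit without it called 0 and 136. The tissue carried ventricular muscle markers throughout: 11 of 12 listed markers had a probe set, and their mean lay within -0.04 to 0.11 of the control mean at 8 weeks, -0.25 to 0.06 at 16 weeks and -0.02 to 0.06 at 24 weeks, against -0.04 to 0.06 among the controls. The mean of all 10 macrophage markers was higher on every ACF array, at 0.72 to 0.96, 0.83 to 1.62 and 0.44 to 0.95 at 8, 16 and 24 weeks, against -0.11 to 0.18 in controls. The mean of all 10 fibroblast markers was 0.27 to 0.75, 0.52 to 0.94 and 0.33 to 0.80 at 8, 16 and 24 weeks, against -0.18 to 0.43 in controls. The part of these cell types in the results on the transcription factors was not tested.

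No transcription factor of the group passed the test at any time after ACF. Differences were tested with limma on all 16 arrays, with p adjusted over 31042 probe sets (Benjamini-Hochberg), and a probe set passed at an adjusted p under 0.05. At 8 weeks against control, 0 of 19 probe sets passed, against 0.0322% of all probe sets. At 16 weeks against control, 0 of 19 passed, against 5.47% of all probe sets, and at 24 weeks against control 0 of 19 passed, against 0.438%. Between the phases, 0 of 19 passed for 16 against 8 weeks, where 0% of all probe sets did, and 0 of 19 for 24 against 16 weeks, where 0.0129% did. With shares this low over the whole array, a count of 0 of 19 is near the background in each comparison.

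The intervals give the size of change that the data allow. At 16 weeks the 19 differences from control ran from -0.64 to 0.24 with a median of -0.06, whereas the median over all probe sets was -0.01. The 95% interval of the difference lay wholly within 1.5-fold in either direction for 17, 16 and 17 of the 19 probe sets at 8, 16 and 24 weeks against control, while 88.1%, 79.4% and 82.6% of all probe sets had such intervals. Without adjustment, p was under 0.05 for 1, 3 and 1 of the 19 at these times, against 6.21%, 19.5% and 15.4% of all probe sets. For 16 against 8 weeks and 24 against 16 weeks the unadjusted counts were 1 and 3 of 19, against 7.07% and 7.81%. Groups lay wholly apart in few cases: the ACF or later group was above on every array for 1, 1, 0, 0 and 1 of the 19 probe sets in the 5 comparisons in this order (8, 16 and 24 weeks against control, 16 against 8 weeks, 24 against 16 weeks), against 2.74%, 7.64%, 4.32%, 2.25% and 1.25% of all probe sets. It was below on every array for 0, 1, 0, 0 and 0 of the 19, against 2.16%, 5.42%, 4.51%, 1.48% and 1.39%. The typical size of the differences was also close to that of the array, with a median absolute difference of 0.12 for the 19 probe sets at 16 weeks and 0.13 for all.

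**Figure D1:**
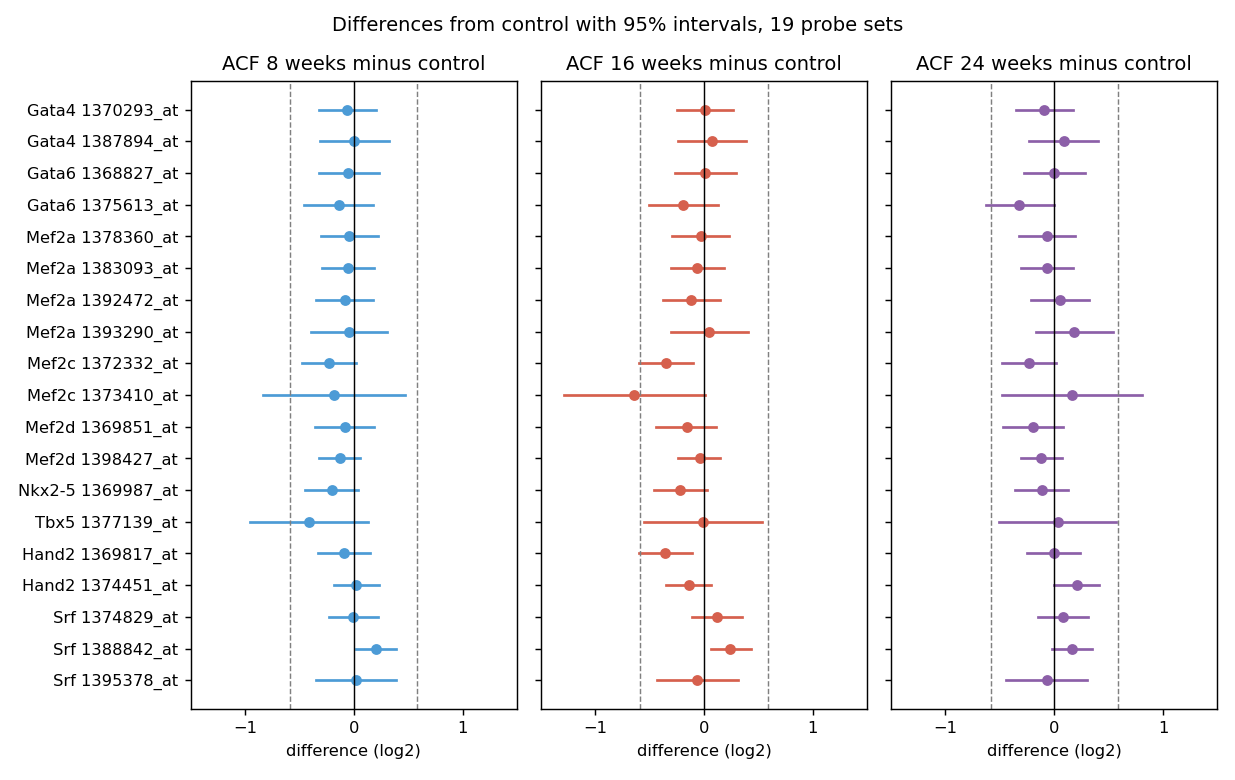
Difference from control (log2, x axis) of each of the 19 probe sets at 8, 16 and 24 weeks after ACF, with points for the estimate and bars for the 95% interval from the fit to 16 arrays (4 per group); dashed lines mark 1.5-fold. Most intervals lie between the dashed lines and cross 0, and the widest belong to Mef2c 1373410_at and Tbx5.

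Srf, encoding serum response factor, had the probe set with the lowest within-group SD of the 19. SRF binds the CArG box, a run of A and T bases between CC and GG, in front of immediate early, cytoskeletal and muscle genes, and it takes its direction from myocardin and myocardin-related cofactors. Srf 1388842_at stood at 3.47, 3.33, 3.32 and 3.36 in controls, 3.66, 3.48, 3.61 and 3.54 at 8 weeks, 3.48, 3.69, 3.63 and 3.66 at 16 weeks and 3.40, 3.67, 3.62 and 3.45 at 24 weeks. All 4 arrays at 8 weeks and all 4 at 16 weeks lay above all 4 controls, though at both times the lowest ACF value was only just above the highest control, and at 24 weeks the groups overlapped. Of all probe sets, 2.74% lay wholly above control at 8 weeks and 7.64% at 16 weeks, and 1 of 19 did so here at each time.

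The difference of this Srf probe set from control was 0.20 at 8 weeks (95% interval 0.02 to 0.39) and 0.24 at 16 weeks (0.06 to 0.43), with adjusted p from limma of 0.739 and 0.119. The exact permutation p of 0.0286 at both times is the smallest that 4 against 4 arrays can give, two-sided. At 24 weeks the difference was 0.16 (-0.02 to 0.35, adjusted p from limma 0.384). Among the arrays of the higher level alone the difference was 0.23 at 8 weeks (3 ACF arrays against 4 controls) and 0.21 at 16 weeks (2 against 4). Its within-group SD of 0.10 ranked at percentile 3.79 among all probe sets, where the median SD was 0.18. The other Srf probe sets were nearer to control: 1374829_at differed from control by -0.01, 0.12 and 0.08 at 8, 16 and 24 weeks, and 1395378_at, whose mean lay below the array median, by 0.02, -0.06 and -0.07. The mean over the 3 Srf probe sets differed from control by 0.10 at 16 weeks (95% interval -0.10 to 0.30).

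CArG boxes stand in front of the Srf gene itself, which is known to be a target of its own product, and in front of Actg1, a cytoskeletal target described below. Both promoters are shown to give the letters behind that textbook relation, and all promoters printed here were chosen after their matches were seen. Promoters came from RefSeq (rat assembly GRCr8), where 8 of the 10 genes had an entry, while Gata4 and Mef2c had none and could not be searched. The 250 bases before the annotated start were searched on both strands for the CArG box, the MEF2 site, GATAA (bound by GATA factors), TNAAGTG (NKX2-5), AGGTGT (T-box factors) and CATCTG (a form of the E-box bound by HAND proteins with their partners). The last 150 bases before the start of Srf (chr9:21923926-21924075, + strand) and Actg1 (chr10:106120952-106121101, - strand) are printed 5′ to 3′, with CArG boxes in capitals.
Srf: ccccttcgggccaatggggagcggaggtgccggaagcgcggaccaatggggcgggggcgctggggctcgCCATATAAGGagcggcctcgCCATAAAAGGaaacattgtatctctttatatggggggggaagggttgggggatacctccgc
Actg1: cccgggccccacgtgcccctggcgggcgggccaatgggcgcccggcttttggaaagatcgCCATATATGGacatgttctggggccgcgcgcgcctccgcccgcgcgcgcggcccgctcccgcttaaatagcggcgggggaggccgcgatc
The 2 CArG boxes of Srf begin 81 and 61 bases before the start, and that of Actg1 begins 90 bases before it. The table held 33469 promoters in all. A match is a description of letters and not a bound site. Among the 8 promoters, 1 held a CArG box (Srf), 1 a MEF2 site (Mef2a), 2 GATAA (Tbx5 and Hand2) and 1 CATCTG (Hand2), while TNAAGTG and AGGTGT were in 0, and over all promoters these motifs stood in 1.5%, 2.96%, 23.5%, 14%, 9.89% and 11.6%. Of 15 promoters from the list of SRF targets described below, 3 (20%) held a CArG box, that of Actg1 among them. For Ccn2, another target described below, TNAAGTG was found but no CArG box. For Actn1 no match to any motif was found, and it may lack an entry. Overlaps between motifs were allowed.

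Lists of partners, inputs and targets were counted with 1 probe set per gene, among 14217 genes of which 0.0352% rose and 0.00703% fell at 8 weeks, 4.92% and 2.59% at 16 weeks and 0.415% and 0.169% at 24 weeks against control. Of 12 measured coactivators on a list of 15, among them myocardin (Myocd), the myocardin-related factor Mrtfa and the histone acetyltransferase Ep300, 0 rose and 0 fell at 8, 16 or 24 weeks, and the median difference was -0.03, -0.10 and 0.01 against a median of 0 over 14217 genes at each time.

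Of 19 measured SRF targets on a list of 20, 3 rose and 0 fell at 16 weeks, and 0 passed at 8 or 24 weeks. Their median difference from control was 0.32, 0.33 and 0.42 at 8, 16 and 24 weeks, against 0 for all genes, with 15, 15 and 16 of 19 above 0. Like the other lists, this one was chosen with earlier results of these data known, so these counts only describe it. The 3 that rose were Ccn2, encoding a matricellular protein that is also a product of fibroblasts and a target of YAP and TGF-beta signalling, Actn1, encoding a nonmuscle alpha-actinin, and Actg1, encoding cytoplasmic gamma-actin.

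Ccn2 stood at 3.67, 3.97, 3.56 and 4.43 in controls, 5.40, 6.32, 5.16 and 4.36 at 8 weeks, 6.51, 6.17, 6.81 and 5.58 at 16 weeks and 5.58, 6.39, 5.70 and 4.76 at 24 weeks. Every 16-week and 24-week array lay above every control, whereas 1 array at 8 weeks was inside the control range. Ccn2 rose by 2.36 ± 0.37 (SE) at 16 weeks, a 5.12-fold difference (adjusted p from limma 0.00186), and differed by 1.40 at 8 weeks and 1.70 at 24 weeks (adjusted p 0.287 and 0.054). Actn1 stood at 3.58, 3.99, 3.31 and 3.21 at 16 weeks, against 2.16, 2.48, 2.18 and 2.75 in controls, with no overlap. It rose by 1.13 ± 0.24 (SE), or 2.19-fold (adjusted p from limma 0.012).

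Actg1 had 6.78, 6.93, 6.98 and 6.77 at 16 weeks, against 6.40, 6.46, 6.40 and 6.46 in controls, and these did not overlap either. It rose by 0.44 ± 0.10 (SE), or 1.35-fold (adjusted p from limma 0.0171), but its adjusted p was 0.0568 without control replicate 1, 0.0503 without ACF 16 weeks replicate 2 and 0.0968 without centring (a difference of 0.32). Its fold also lies under the 1.5-fold minimum of the methods. Actin genes are close in sequence, and signal from a related actin in this probe set was not tested. By the methods' unpaired test with adjustment over all probe sets, the smallest adjusted p of these 3 genes was 0.0593, so all 3 calls were lost there, where 88 probe sets passed in place of 1698. Acta2, Tagln, Cnn1 and Myh11 of the SRF list are also smooth muscle markers, and the 8 smooth muscle and pericyte markers had medians of 0.07, 0.01 and 0.04 at 8, 16 and 24 weeks with 0 calls. Of the fibroblast and macrophage markers, 5 and 8 of 10 rose at 16 weeks, and their part in the list was not tested.

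Hand2 was the factor with the lowest adjusted p of the group. HAND2 is needed for the growth of the ventricles in the embryo and is also made by fibroblasts and sympathetic neurons. Hand2 1369817_at stood at 1.23, 0.91, 0.95 and 1.16 in controls, 1.04, 1.08, 1.03 and 0.74 at 8 weeks, 0.73, 0.74, 0.80 and 0.56 at 16 weeks and 1.29, 0.79, 1.14 and 1.03 at 24 weeks. All 4 arrays at 16 weeks lay below all 4 controls, as 5.42% of all probe sets did, and the 24-week arrays spread over the whole control range. The difference at 16 weeks was -0.36 (95% interval -0.60 to -0.11), or 0.781-fold, with an adjusted p from limma of 0.0828. Without centring it was -0.47 and passed (adjusted p from limma 0.0366). Among the higher-level arrays alone it was -0.33 (2 ACF arrays against 4 controls).

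The other Hand2 probe set, 1374451_at, had 2.09, 2.29, 2.27 and 2.34 in controls, 2.19, 2.34, 2.40 and 2.15 at 8 weeks, 1.96, 2.20, 2.05 and 2.21 at 16 weeks and 2.48, 2.29, 2.61 and 2.44 at 24 weeks. Here 16 weeks overlapped with control (-0.14, 95% interval -0.35 to 0.06), while all 24-week arrays lay above all 16-week arrays, as 1.25% of all probe sets did. For 24 against 16 weeks the difference was 0.35 in both Hand2 probe sets, with 95% intervals of 0.14 to 0.55 in 1374451_at and 0.11 to 0.60 in 1369817_at, and adjusted p from limma of 0.383 and 0.487. Among the arrays of the lower level alone (4 at 24 weeks against 2 at 16 weeks) these differences were 0.33 and 0.38. In both probe sets 16 weeks had the lowest group mean, and 8 weeks differed from control by -0.09 and 0.02.

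MEF2 proteins hold contractile and metabolic genes active and are repressed by class II histone deacetylases until kinases such as CaMKII and protein kinase D release them. Mef2c 1372332_at stood at 3.79, 4.07, 4.08 and 3.65 in controls, 3.58, 3.72, 3.69 and 3.68 at 8 weeks, 3.34, 3.64, 3.55 and 3.66 at 16 weeks and 3.68, 3.43, 3.93 and 3.64 at 24 weeks. Each ACF group overlapped with the controls, because control replicate 4, at 3.65, lay within the range of each of them. The differences from control were -0.23, -0.35 and -0.23 at 8, 16 and 24 weeks (95% intervals -0.48 to 0.02, -0.60 to -0.10 and -0.48 to 0.02), and the adjusted p from limma at 16 weeks was 0.0991. The call depended on the scaling: with quantile normalization the difference at 16 weeks was -0.41 (adjusted p 0.0494), and without centring it was -0.47 (adjusted p 0.0344), with -0.43 at 24 weeks (adjusted p 0.0368).

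The second Mef2c probe set was far more variable. Mef2c 1373410_at had 2.64, 3.49, 3.68 and 2.42 in controls, 2.38, 3.03, 3.51 and 2.58 at 8 weeks, 2.22, 2.21, 2.51 and 2.72 at 16 weeks and 3.36, 3.26, 3.82 and 2.44 at 24 weeks. Controls and the 8-week and 24-week groups each spanned more than 1 log2 unit, while the 16-week arrays ran from 2.21 to 2.72, at the low end of the control range. Its within-group SD of 0.51 ranked at percentile 98.2 of the array. The difference was -0.64 at 16 weeks against control (95% interval -1.29 to 0.01) and 0.80 for 24 against 16 weeks (0.16 to 1.45, adjusted p from limma 0.573), and its group means had the widest range of the 19 probe sets. Over both probe sets, the Mef2c mean differed from control by -0.49 at 16 weeks (95% interval -0.91 to -0.08, adjusted p from limma 0.134).

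**Figure D2:**
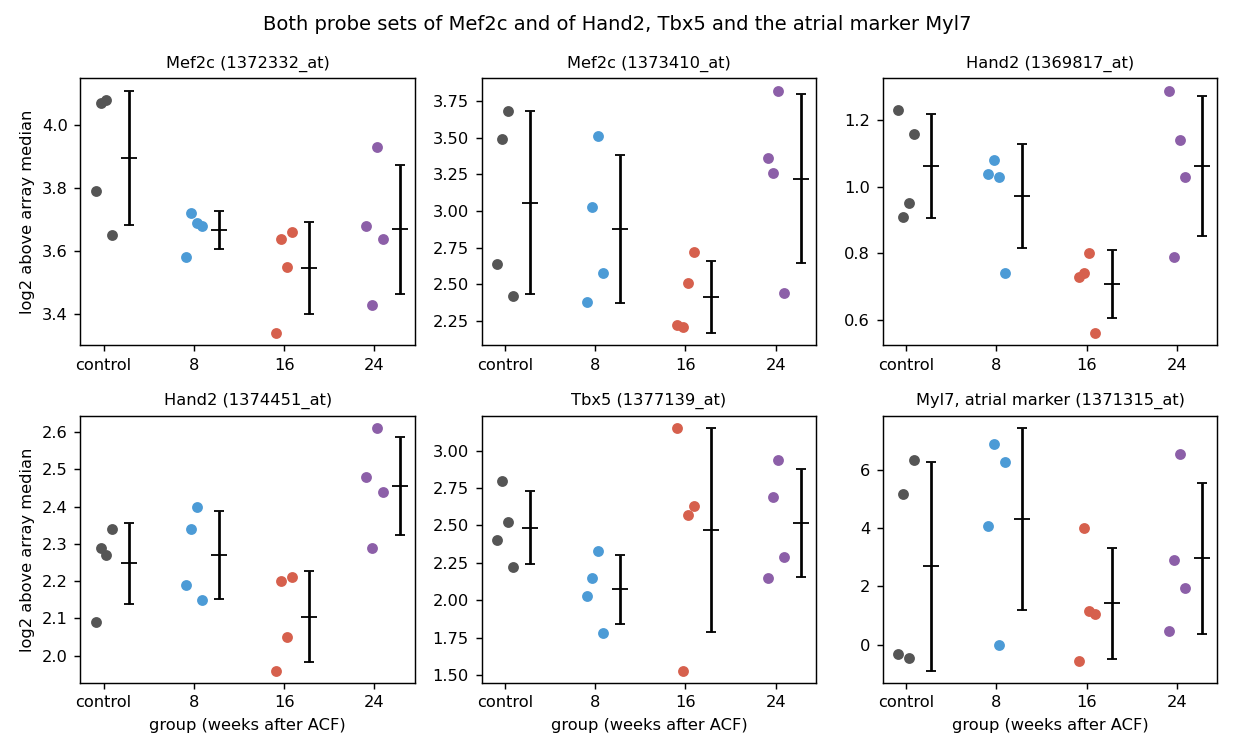
Values by array (log2 above the array median, y axis, scaled separately in each panel) in controls and at 8, 16 and 24 weeks after ACF for both probe sets of Mef2c and of Hand2, for Tbx5 and for the atrial marker Myl7; coloured points are single arrays, and black marks with bars give the mean and SD of 4 arrays. Both Hand2 probe sets are lowest at 16 weeks, Mef2c 1373410_at and Tbx5 spread widely within groups, and Myl7 runs from -0.57 to 6.91.

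Mef2a, whose product is needed for a normal adult heart in mouse, gave 4 probe sets whose differences from control lay between -0.12 and 0.18 in all 12 comparisons of a probe set with control. Its probe set 1383093_at had 4.81, 5.14, 5.25 and 5.04 at 16 weeks, against 5.06, 5.24, 5.05 and 5.15 in controls, so the ACF arrays enclosed the control range. That difference was -0.06, with a 95% interval of -0.30 to 0.18. Mef2d, which carries stress signals to fetal genes in mouse heart, differed from control by -0.08, -0.16 and -0.20 in 1369851_at and by -0.13, -0.04 and -0.12 in 1398427_at at 8, 16 and 24 weeks. The 95% intervals of both Mef2d probe sets lay within -0.47 and 0.19 at 8, 16 and 24 weeks.

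A MEF2 site was present in the Mef2a promoter, as in 2.96% of all promoters, and it is shown because it is the only MEF2 site found among the 8 factor promoters. The last 150 bases before the start (chr1:130392163-130392312, - strand, GRCr8) follow, with the site in capitals.
Mef2a: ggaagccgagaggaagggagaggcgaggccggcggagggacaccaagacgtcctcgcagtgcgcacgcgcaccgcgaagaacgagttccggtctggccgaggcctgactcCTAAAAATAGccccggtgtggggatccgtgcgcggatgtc
The site begins 40 bases before the start.

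Signalling genes upstream of the MEF2 and SRF proteins gave few calls. Of 24 measured genes on a list of 26 kinases, phosphatases, their regulators and NFAT factors, 1 rose and 1 fell at 16 weeks, 1 rose at 24 weeks, and 0 passed at 8 weeks. Map2k6, encoding the kinase MKK6 that activates p38 and through it MEF2, stood at -0.39, -0.14, 0.15 and 0.75 at 16 weeks, against 1.21, 1.15, 0.69 and 1.03 in controls. The 16-week group was lower apart from 1 array inside the control range, and Map2k6 fell by 0.93 ± 0.19 (SE) on the log2 scale (adjusted p from limma 0.0102). The 16-week values split by array level, with -0.39 and -0.14 on the higher-level arrays. Among higher-level arrays alone the Map2k6 difference was -1.28 (2 ACF arrays against 4 controls). Rock2, encoding a kinase that acts on the actin cytoskeleton, stood at 4.20, 4.15, 3.58 and 3.72, against 3.23, 3.42, 3.26 and 3.30 in controls.

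The Rock2 values did not overlap, and Rock2 rose by 0.61 ± 0.14 (SE), or 1.52-fold (adjusted p from limma 0.0175). Rock2 also split by array level at 16 weeks, with 4.20 and 4.15 on the higher-level arrays, where its difference was 0.87 (2 ACF arrays against 4 controls). Its adjusted p was 0.0588 without control replicate 1, 0.063 without ACF 16 weeks replicate 1, 0.0599 without ACF 16 weeks replicate 2 and 0.099 without centring. Camk2b, encoding a CaMKII subunit, had 1.04, 0.47, 0.45 and 0.17 at 24 weeks, against -0.11, -0.33, -0.09 and -0.71 in controls, without overlap. It rose by 0.84 ± 0.18 (SE), or 1.80-fold (adjusted p from limma 0.0448), but the call held in only 14 of 29 alternatives. The adjusted p was 0.358 with the array level as a block, 0.08 to 0.127 without any 1 control, 0.0867, 0.139 and 0.0924 without ACF 24 weeks replicates 1, 2 and 3, 0.0509 and 0.054 without ACF 8 weeks replicates 3 and 4, and 0.056 and 0.0522 without ACF 16 weeks replicates 2 and 4. By the methods' unpaired test with adjustment, the adjusted p of Map2k6, Rock2 and Camk2b was 0.173, 0.155 and 0.267.

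Histone deacetylases and other repressors hold these factors in check. Of 14 measured repressors on a list of 15, among them Hdac4, Hdac5 and the cofactor Hopx, 0 rose and 0 fell at each time against control. Their median difference was -0.13, -0.24 and -0.15 at 8, 16 and 24 weeks, against 0 for all genes.

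Nkx2-5, Tbx5 and the GATA factors form the core of the early heart program. Nkx2-5, a single probe set, stood at 4.12, 4.03, 4.02 and 4.17 in controls, 4.05, 3.80, 3.97 and 3.71 at 8 weeks, 3.55, 3.79, 4.06 and 4.07 at 16 weeks and 4.02, 4.11, 3.89 and 3.87 at 24 weeks. Controls were tight and high, and every ACF group overlapped with them. The differences from control were -0.20, -0.22 and -0.11 (95% intervals -0.45 to 0.04, -0.46 to 0.03 and -0.36 to 0.13), with a smallest adjusted p from limma of 0.319. At 16 weeks this value moved with the array level. The arrays with 3.55 and 3.79 were those of the higher level, and among higher-level arrays alone the difference was -0.41 (2 arrays against 4, adjusted p from limma 0.0677). At 8 weeks the lower-level array, at 3.80, lay within the range of the higher-level ones.

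Tbx5, a partner of NKX2-5 and GATA4 that in the mature heart is higher in atria than in ventricles, had 2.40, 2.80, 2.52 and 2.22 in controls, 2.03, 2.15, 2.33 and 1.78 at 8 weeks, 3.15, 1.53, 2.57 and 2.63 at 16 weeks and 2.15, 2.69, 2.94 and 2.29 at 24 weeks. The 16-week group held both the highest and the lowest value of all 16 arrays. The within-group SD of 0.42 ranked at percentile 96.7. Tbx5 differed from control by -0.41 at 8 weeks (95% interval -0.95 to 0.13, adjusted p from limma 0.922), -0.01 at 16 weeks (-0.55 to 0.53) and 0.03 at 24 weeks (-0.51 to 0.57). Without ACF 16 weeks replicate 2 the 16-week difference was 0.30 (adjusted p 0.479).

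Atrial markers varied widely within every group. The atrial light chain gene Myl7 ran from -0.45 to 6.34 in controls, 0 to 6.91 at 8 weeks, -0.57 to 4.01 at 16 weeks and 0.45 to 6.55 at 24 weeks. The atrial marker mean was taken over Myl7, Myl4, Sln and Nppa, a natriuretic peptide gene described below that itself rose at 16 weeks. This mean was highest in 8 weeks replicate 2 and 24 weeks replicate 3. Leaving out these 2 arrays gave Tbx5 differences of -0.44, -0.01 and -0.11 from control and no call for any of the 19 probe sets. No control and no 16-week array was left out, so the differences at 16 weeks against control could not change.

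Gata4 and Gata6 encode factors that drive cardiac growth genes. Gata4 1387894_at had 3.00, 3.77, 3.66 and 3.39 at 16 weeks, against 3.41, 3.41, 3.51 and 3.19 in controls, so the 16-week arrays lay on both sides of the controls. It differed from control by 0.00, 0.07 and 0.09 at 8, 16 and 24 weeks, with 95% intervals within -0.31 and 0.40, and 1370293_at by -0.06, 0.01 and -0.09. Gata6 1368827_at differed by -0.05, 0.01 and 0.00. The second Gata6 probe set, 1375613_at, had 0.17, 0.07, 0.33 and 0.61 at 24 weeks, against 0.61, 0.47, 0.88 and 0.47 in controls, which overlap only through 1 array, 24 weeks replicate 4. That difference was -0.32 (95% interval -0.63 to 0.00, adjusted p from limma 0.329), and without centring it was -0.52 (adjusted p 0.0389).

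**Figure D3:**
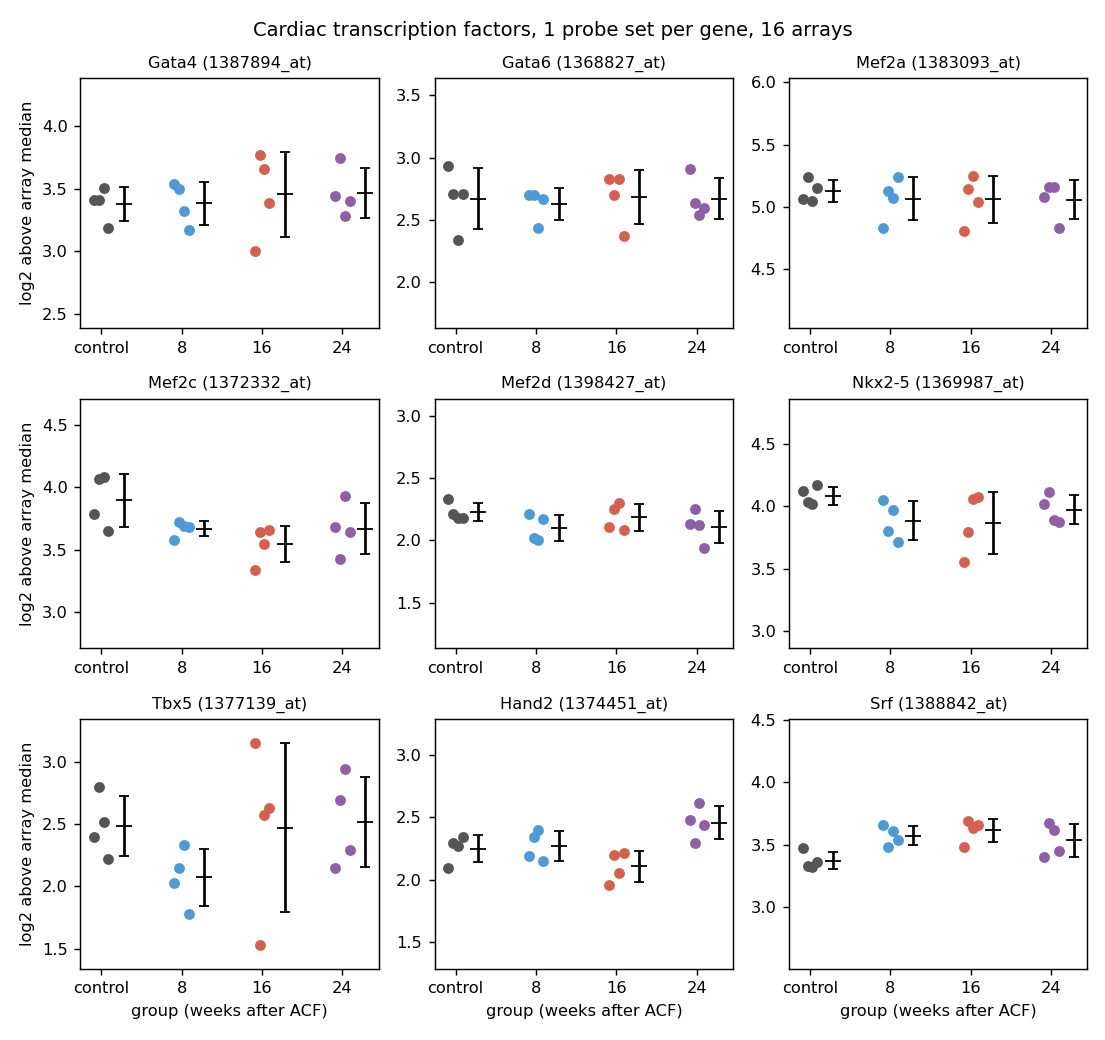
Values by array (log2 above the array median, y axis, each panel spanning 2 log2 units) of 9 transcription factors in controls and at 8, 16 and 24 weeks after ACF, with the probe set of highest mean standing for each gene; coloured points are single arrays, and black marks with bars give the mean and SD of 4 arrays. Only Srf at 8 and 16 weeks lies wholly apart from the controls, and Tbx5 has the widest spread.

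Relatives of these factors act in other parts of the heart or earlier in development, and some, such as Tbx3, are also on the list of repressors. Of 22 measured genes on a list of 24, among them Gata5, Hand1, Tbx3 and Isl1, 0 rose and 0 fell at 8, 16 and 24 weeks, with medians of -0.06, -0.03 and -0.09.

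The natriuretic peptide genes, classical targets of GATA4, NKX2-5, TBX5 and MEF2C, were measured beside the factors that bind them. Nppa, encoding atrial natriuretic peptide, had 6.90, 5.82, 4.20 and 5.71 in controls, 7.16, 7.70, 7.66 and 6.05 at 8 weeks, 8.26, 7.66, 7.84 and 7.74 at 16 weeks and 6.87, 8.32, 7.42 and 7.37 at 24 weeks. All 16-week arrays exceeded all controls, while 1 array each at 8 and 24 weeks lay below the highest control. Nppa rose by 2.21 ± 0.45 (SE) at 16 weeks, or 4.64-fold (adjusted p from limma 0.00889), and differed by 1.48 at 8 weeks and 1.84 at 24 weeks (adjusted p 0.433 and 0.0728).

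Nppb, encoding brain natriuretic peptide, had 7.10, 6.91, 6.57 and 6.44 at 16 weeks, against 5.98, 6.32, 5.88 and 6 in controls, with no overlap. Its difference was 0.71 at 16 weeks (95% interval 0.24 to 1.18, adjusted p from limma 0.0746), and with the array level as a block it was 0.86 (adjusted p 0.0499). By the methods' unpaired test with adjustment, the adjusted p at 16 weeks was 0.149 for Nppa and 0.147 for Nppb. Nppa is itself an atrial gene, and the other atrial markers also varied within groups, though not all as widely as Myl7. At 16 weeks Myl7 ran from -0.57 to 4.01, Myl4 from 0.82 to 3.12 and Sln from 0.25 to 1.66. Their part in the Nppa values was not tested.

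GATA motifs in the promoters of both genes are shown because these genes are textbook targets of the group. The last 150 bases before the start of Nppa (chr5:163712034-163712183, + strand) and Nppb (chr5:163699858-163700007, + strand) in GRCr8 follow, with GATAA on either strand in capitals.
Nppa: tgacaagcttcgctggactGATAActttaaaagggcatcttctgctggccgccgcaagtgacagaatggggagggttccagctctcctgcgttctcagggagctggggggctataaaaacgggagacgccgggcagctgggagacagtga
Nppb: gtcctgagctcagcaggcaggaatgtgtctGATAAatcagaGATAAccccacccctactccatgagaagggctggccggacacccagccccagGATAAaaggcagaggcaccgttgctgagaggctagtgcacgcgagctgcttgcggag
The motif begins 131 bases before the start of Nppa and 120, 109 and 57 bases before that of Nppb, and it was found in 23.5% of all promoters.

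The remaining structural and channel genes of the list gave no further call. Of 25 measured cardiac targets on a list of 28, 1 rose and 0 fell at 16 weeks, Nppa itself, and 0 passed at 8 or 24 weeks. The median difference over the list was 0.02, 0.04 and 0.06 at 8, 16 and 24 weeks, against 0 for all genes.

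**Figure D4:**
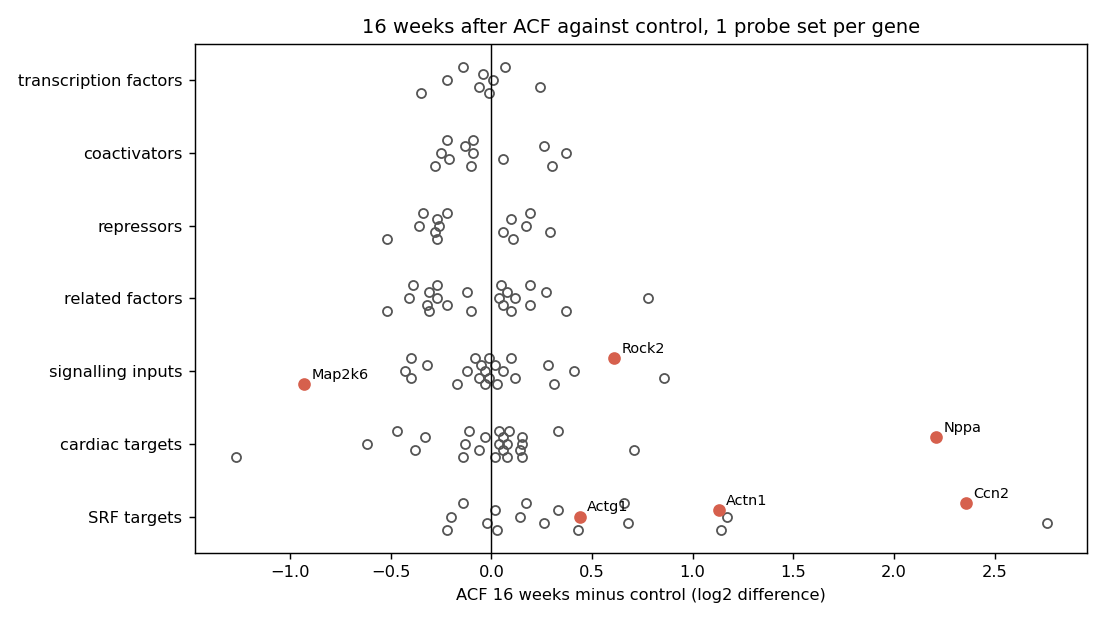
Difference of 16 weeks after ACF minus control (log2, x axis) for each measured gene of the transcription factor group and of 6 lists, 1 probe set per gene and 4 arrays per group; filled points passed at an adjusted p under 0.05 and are named. The 9 transcription factors lie between -0.35 and 0.24, while Nppa and Ccn2 lie at 2.21 and 2.36.

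The patterns most like the 2 probe sets with the widest range of group means were sought among 14216 genes by the root mean square distance over 16 arrays, after subtracting each gene's own mean. For Mef2c 1373410_at, whose own root mean square deviation was 0.53, the nearest genes were Klhl23 at a distance of 0.35, LOC102553868 at 0.35 and Plekhb1 at 0.37. For Tbx5, with a deviation of 0.41, they were Lnpep at 0.24, Lsm14b at 0.24 and Abitram at 0.27. These distances leave much of each pattern unmatched and are given as a description.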

How the data were processed

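The deposited log2 intensities per probe set were made by the authors with RMA in Affymetrix Expression Console 1.2, per the submitters' processing notes, which corrects background, quantile normalizes and summarises probes. The methods name a different Affymetrix rat array from the one these probe set names belong to. No raw intensities were processed, and 0 columns of values were left unused. Each array was centred on its median over all probe sets. The 57 control probe sets of the manufacturer were left out of the tests. Of 31099 probe sets, 20832 carry 1 gene symbol, 436 several and 9831 none; only the first kind named a gene, and for lists the probe set with the highest mean stood for a gene. The signal of the arrays has no counts, so their number limits the precision.

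Groups came from the labels. A model with 1 mean per group was fitted with limma 3.58.1 in R 4.3.3, and p was adjusted over 31042 probe sets (Benjamini-Hochberg, threshold 0.05); intervals are 95%. The fit was tested on simulated data. The methods' unpaired test, other normalizations, array level and replicate number as blocks, filters and leaving out arrays were alternatives. Nothing says whether the rats of a group shared a litter or batch, so p-values measure only the spread between rats within these groups. In the limma fit that spread is pooled over the 4 groups and drawn towards that of all probe sets. The text names all member probe sets, up to 5 genes per list that passed in any comparison, Nppa and Nppb, and the 3 genes nearest in pattern to the 2 member probe sets with the widest range of group means; other list genes are named only as examples of a list. The members and lists were chosen with earlier results of these data known. Figures were drawn with matplotlib 3.10.9.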

Additional observations from a re-analysis of the deposited data

Results flagged for a closer look

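Of 76 groups of 4 arrays (19 probe sets in 4 groups), 5 held 1 array that stood far from the other 3 by Dixon's criterion at the 95% level. Chance gives about 1 in 20 groups. Gata4 1370293_at was 0.54 in control replicate 1, against 0.40 to 0.42 in the other controls. Gata6 1368827_at was 2.44 in ACF 8 weeks replicate 3, against 2.67 to 2.70 in the others. In ACF 8 weeks replicate 4, Gata6 1375613_at was 0.06, against 0.56 to 0.64, and Hand2 1369817_at was 0.74, against 1.03 to 1.08. Mef2a 1378360_at was 3.27 in ACF 16 weeks replicate 3, against 2.82 to 2.89 in the others.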

How the results depend on the processing

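Of the 32 alternatives, 29 gave 0 transcription factor calls in all 5 comparisons they could give, among them leaving out any 1 array. Not all of the 29 tested all 19 probe sets. With 1 probe set per gene, and with the mean over the probe sets of a gene, 1 value for each of 9 genes was tested. The filter on mean level left out Srf 1395378_at, whose mean ranked at percentile 34.1. A 1.5-fold minimum beside the adjusted p, counted among the 29, could only give 0, because it narrows the calls of the main fit. The alternatives that called a probe set were as follows. Without centring, Mef2c 1372332_at (-0.47, adjusted p from limma 0.0344) and Hand2 1369817_at (-0.47, 0.0366) passed at 16 weeks against control, and Gata6 1375613_at (-0.52, 0.0389) and Mef2c 1372332_at (-0.43, 0.0368) at 24 weeks against control. Those deposited values carry the 0.21 gap between the array levels, and over all probe sets they gave 462 higher and 1259 lower at 16 weeks and 145 higher and 3694 lower at 24 weeks, against 1123 and 575 and against 84 and 52 after centring. With quantile normalization Mef2c 1372332_at passed at 16 weeks (-0.41, adjusted p from limma 0.0494), where 1887 of all 31042 probe sets passed. At the methods' threshold, a 1.5-fold minimum with p not adjusted, Mef2c 1373410_at passed for 24 against 16 weeks (0.80), where 165 of all probe sets passed. The higher-level arrays could give no value for 24 weeks. The alternative without the 2 arrays of highest atrial markers was chosen after the data were seen, as were the within-level differences and the promoters shown. Of 2852 values of single probe sets under the alternatives, 2656 kept direction and call, 6 gained a call and 190 changed sign, each of these smaller than 1 SE in 1 of the fits. Where a value or count below differs from the one given above, the cause was not tested.

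Same-numbered rats of different groups did not deviate together (r of -0.27 to 0.24 over 20 pairs, 5 of them over 0.1), so the replicate numbers were not taken as pairs. With the replicate block, 0 of 19 probe sets were called in each comparison, and 1, 1740, 133, 0 and 0 of all probe sets for 8, 16 and 24 weeks against control, 16 against 8 weeks and 24 against 16 weeks, where the fit without it called 10, 1698, 136, 0 and 4. Over all probe sets, leaving out 1 array gave 1 to 32, 744 to 2100, 4 to 873, 0 to 2 and 0 to 14 calls, and the methods' test with adjustment gave 2, 88, 0, 0 and 2.

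Without centring, differences of the other sign were -0.05 in Gata4 1387894_at, -0.03 in Hand2 1374451_at and -0.04 in Srf 1395378_at (8 weeks against control), -0.11 in Gata4 1370293_at, -0.04 in Gata4 1387894_at, -0.11 in Gata6 1368827_at and -0.07 in Mef2a 1393290_at (16 weeks against control), -0.12 in Gata4 1387894_at, -0.15 in Mef2a 1392472_at, -0.02 in Mef2a 1393290_at, -0.04 in Mef2c 1373410_at, -0.17 in Tbx5 1377139_at, -0.13 in Srf 1374829_at and -0.04 in Srf 1388842_at (24 weeks against control), 0 in Gata6 1368827_at, -0.05 in Mef2a 1378360_at and -0.02 in Srf 1388842_at (16 against 8 weeks) and -0.07 in Gata4 1387894_at and -0.04 in Tbx5 1377139_at (24 against 16 weeks). With quantile normalization, differences of the other sign were -0.03 in Gata4 1387894_at and -0.01 in Hand2 1374451_at (8 weeks against control), -0.01 in Gata4 1370293_at, -0.05 in Gata6 1368827_at and -0.02 in Mef2a 1393290_at (16 weeks against control), -0.01 in Tbx5 1377139_at (24 weeks against control), -0.02 in Mef2a 1378360_at and 0 in Mef2a 1383093_at (16 against 8 weeks) and 0 in Gata6 1368827_at and 0 in Srf 1395378_at (24 against 16 weeks). With cyclic loess, differences of the other sign were -0.02 in Gata4 1387894_at (8 weeks against control), -0.03 in Gata6 1368827_at (16 weeks against control), -0.01 in Mef2a 1378360_at (16 against 8 weeks) and 0 in Mef2a 1383093_at (24 against 16 weeks). With array level as a block, differences of the other sign were -0.04 in Gata4 1387894_at and -0.01 in Srf 1395378_at (8 weeks against control), -0.12 in Gata4 1370293_at, 0 in Gata4 1387894_at and -0.13 in Mef2a 1393290_at (16 weeks against control), -0.06 in Gata4 1387894_at, 0.05 in Gata6 1368827_at, -0.15 in Mef2a 1392472_at, -0.17 in Mef2a 1393290_at, -0.15 in Mef2c 1373410_at and -0.16 in Tbx5 1377139_at (24 weeks against control), -0.03 in Mef2a 1378360_at (16 against 8 weeks) and -0.06 in Gata4 1387894_at, 0.01 in Gata6 1368827_at, -0.04 in Mef2a 1393290_at, -0.05 in Tbx5 1377139_at and 0.03 in Nppb (24 against 16 weeks). On the arrays of the higher level alone, differences of the other sign were -0.04 in Gata4 1387894_at, 0 in Hand2 1374451_at and -0.03 in Srf 1395378_at (8 weeks against control), -0.16 in Gata4 1370293_at and -0.17 in Mef2a 1393290_at (16 weeks against control) and -0.06 in Gata4 1370293_at, -0.06 in Mef2a 1378360_at, -0.07 in Mef2a 1393290_at and -0.02 in Srf 1388842_at (16 against 8 weeks). With array weights, differences of the other sign were -0.01 in Gata4 1387894_at and 0.02 in Srf 1374829_at (8 weeks against control), -0.05 in Gata6 1368827_at (16 weeks against control), 0 in Hand2 1369817_at (24 weeks against control), 0.04 in Mef2a 1383093_at and -0.06 in Nppb (16 against 8 weeks) and -0.03 in Gata4 1387894_at, 0.02 in Gata6 1368827_at and 0.04 in Srf 1395378_at (24 against 16 weeks). Without the 2 arrays of highest atrial markers, differences of the other sign were -0.04 in Gata4 1387894_at, 0 in Hand2 1374451_at and -0.03 in Srf 1395378_at (8 weeks against control), 0.01 in Gata4 1370293_at, 0.04 in Gata6 1368827_at, -0.03 in Mef2a 1392472_at, -0.04 in Mef2c 1373410_at and -0.11 in Tbx5 1377139_at (24 weeks against control), 0.01 in Gata6 1375613_at and 0.01 in Mef2a 1383093_at (16 against 8 weeks) and 0.03 in Gata6 1368827_at, 0.04 in Mef2d 1369851_at and -0.10 in Tbx5 1377139_at (24 against 16 weeks).

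Leaving out 1 array at a time turned the sign of the following small differences. For 8 weeks against control they ran over -0.10 to 0.02 in Gata4 1370293_at, -0.06 to 0.07 in Gata4 1387894_at, -0.15 to 0.04 in Gata6 1368827_at, -0.08 to 0.01 in Mef2a 1378360_at, -0.11 to 0.02 in Mef2a 1383093_at, -0.10 to 0.06 in Mef2a 1393290_at, -0.39 to 0.03 in Mef2c 1373410_at, -0.15 to 0.02 in Mef2d 1369851_at, -0.03 to 0.06 in Hand2 1374451_at, -0.05 to 0.10 in Srf 1374829_at and -0.08 to 0.22 in Srf 1395378_at. For 16 weeks against control they ran over -0.05 to 0.10 in Gata4 1370293_at, -0.03 to 0.23 in Gata4 1387894_at, -0.10 to 0.12 in Gata6 1368827_at, -0.14 to 0.02 in Mef2a 1378360_at, -0.13 to 0.02 in Mef2a 1383093_at, -0.09 to 0.26 in Mef2a 1393290_at, -0.24 to 0.30 in Tbx5 1377139_at and -0.16 to 0.06 in Srf 1395378_at. For 24 weeks against control they ran over -0.17 to 0.01 in Gata4 1370293_at, -0.01 to 0.15 in Gata4 1387894_at, -0.11 to 0.08 in Gata6 1368827_at, -0.14 to 0.03 in Mef2a 1378360_at, -0.10 to 0.01 in Mef2a 1383093_at, -0.03 to 0.14 in Mef2a 1392472_at, -0.05 to 0.42 in Mef2c 1373410_at, -0.11 to 0.15 in Tbx5 1377139_at, -0.08 to 0.09 in Hand2 1369817_at and -0.13 to 0.01 in Srf 1395378_at. For 16 against 8 weeks they ran over -0.01 to 0.16 in Gata4 1370293_at, -0.03 to 0.22 in Gata4 1387894_at, -0.01 to 0.16 in Gata6 1368827_at, -0.18 to 0.02 in Gata6 1375613_at, -0.10 to 0.05 in Mef2a 1378360_at, -0.09 to 0.08 in Mef2a 1383093_at, -0.11 to 0.05 in Mef2a 1392472_at, -0.05 to 0.30 in Mef2a 1393290_at, -0.08 to 0.09 in Nkx2-5 1369987_at, -0.28 to 0.04 in Srf 1395378_at and -0.17 to 0.22 in Nppb. For 24 against 16 weeks they ran over -0.14 to 0.12 in Gata4 1387894_at, -0.12 to 0.04 in Gata6 1368827_at, -0.11 to 0.07 in Mef2a 1378360_at, -0.09 to 0.07 in Mef2a 1383093_at, -0.07 to 0.27 in Mef2a 1393290_at, -0.13 to 0.04 in Mef2d 1369851_at, 0 to 0.17 in Nkx2-5 1369987_at, -0.27 to 0.27 in Tbx5 1377139_at, -0.11 to 0.02 in Srf 1374829_at and -0.13 to 0.09 in Srf 1395378_at.

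Without centring, the counts were 2 transcription factor probe sets called, 2 repressors lower, 1 relative lower, 0 signalling genes higher, 5 signalling genes lower and 2 cardiac targets lower (16 weeks against control) and 2 transcription factor probe sets called, 5 repressors lower, 1 relative lower, 3 signalling genes lower, 1 cardiac target higher and 1 SRF target higher (24 weeks against control). With quantile normalization, the counts were 1 transcription factor probe set called, 2 repressors lower, 2 signalling genes lower and 1 cardiac target lower (16 weeks against control). With cyclic loess, the counts were 1 relative higher (16 weeks against control). With array level as a block, the counts were 1 repressor lower, 1 relative higher, 1 relative lower, 2 signalling genes higher, 4 signalling genes lower, 2 cardiac targets higher and 1 cardiac target lower (16 weeks against control) and 0 signalling genes higher (24 weeks against control). On the arrays of the higher level alone, the counts were 1 repressor lower, 1 relative higher, 2 signalling genes higher, 4 signalling genes lower and 1 cardiac target lower (16 weeks against control). On the 8 arrays compared, the counts were 2 signalling genes higher and 2 cardiac targets higher (16 weeks against control) and 0 signalling genes higher and 1 SRF target higher (24 weeks against control). With trend and robust options, the counts were 1 coactivator higher, 1 relative higher and 2 cardiac targets higher (16 weeks against control). With array weights, the counts were 1 SRF target higher (8 weeks against control), 1 coactivator higher, 2 relatives higher, 2 cardiac targets higher and 1 cardiac target lower (16 weeks against control) and 2 SRF targets higher (24 weeks against control). With the replicate block, the counts were 2 signalling genes higher, 2 cardiac targets higher and 1 cardiac target lower (16 weeks against control) and 1 SRF target higher (24 weeks against control). By the methods' test with adjustment, the counts were 0 signalling genes higher, 0 signalling genes lower, 0 cardiac targets higher and 0 SRF targets higher (16 weeks against control) and 0 signalling genes higher (24 weeks against control). By the methods' test at its own threshold, the counts were 1 signalling gene higher and 2 SRF targets higher (8 weeks against control), 1 relative higher, 2 signalling genes higher, 2 cardiac targets higher and 5 SRF targets higher (16 weeks against control), 2 cardiac targets higher and 4 SRF targets higher (24 weeks against control), 1 SRF target higher (16 against 8 weeks) and 1 transcription factor probe set called, 1 signalling gene higher and 1 SRF target lower (24 against 16 weeks). Among the probe sets above the median of mean level, the counts were 1 coactivator higher, 2 relatives higher, 2 signalling genes higher, 2 signalling genes lower, 2 cardiac targets higher and 1 cardiac target lower (16 weeks against control) and 0 signalling genes higher and 1 SRF target higher (24 weeks against control). With 1 probe set per gene, the counts were 1 coactivator higher, 2 relatives higher, 2 signalling genes higher, 2 signalling genes lower, 2 cardiac targets higher and 1 cardiac target lower (16 weeks against control) and 1 SRF target higher (24 weeks against control). Without the 2 arrays of highest atrial markers, the counts were 0 signalling genes higher (24 weeks against control). The background moved between the alternatives as well. Over all probe sets, 8, 16 and 24 weeks against control gave 10, 1698 and 136 calls in the main fit. With array weights they gave 164, 2345 and 865, and by the methods' test at its own threshold 308, 1235 and 648.

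Leaving out 1 array at a time moved the following list counts. For 16 weeks against control it gave 0 to 1 coactivator higher, 0 to 2 relatives higher, 0 to 2 signalling genes higher, 1 to 3 signalling genes lower, 1 to 2 cardiac targets higher, 0 to 1 cardiac target lower and 2 to 5 SRF targets higher. For 24 weeks against control it gave 0 to 1 signalling gene higher, 0 to 1 signalling gene lower and 0 to 1 SRF target higher.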
